A study of Homo sapiens with 48 samples.

Results

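The ING3 knockout in A382 cells, an established human glioblastoma line, was compared with the negative control guide sgNeg2. The comparison held 4 of the series' 48 libraries. ING3 was targeted with 2 guide RNAs, 1 library for each guide, and sgNeg2 was sequenced in 2 replicates. The libraries were assigned to their groups by their labels, while the comparison and the gene lists were chosen with earlier results of these data known. All 4 came from A382 cells infected with a lentivirus carrying the guide and collected on day 9, so lentiviral infection and a guide RNA are shared by knockout and control. Polyadenylated RNA was sequenced from strand-specific libraries. How the nuclease was supplied, and whether the cells were a mixed population or clones, is not given in the sources used here. The labels do not say whether the 2 sgNeg2 replicates were separate cultures. The p-values measure only the spread between libraries, most of it between 2 guides for the same target, and for sgNeg2 between replicates that may be technical.

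ING3 is a member of the inhibitor of growth family, whose proteins bind the methylated tail of histone H3 through a zinc-binding PHD finger. It belongs to the acetyltransferase module of the EP400/TIP60 complex, together with the enzyme TIP60 (gene KAT5), MEAF6 and the bridging proteins EPC1 or EPC2. That module acetylates histones H4 and H2A, while EP400 exchanges the histone variant H2A.Z into nucleosomes. The other ING proteins serve other enzymes: ING1 and ING2 work with the SIN3 deacetylase complex, and ING4 and ING5 with the HBO1 and MOZ acetyltransferases. The series title places these knockouts in a study of BRD8, another subunit, and the p53 network.

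Expression was deposited as FPKM, the fragments mapped to a gene scaled by its transcript length and by library depth. Differences are given as log2(FPKM + 1) of ING3 minus sgNeg2, with a standard error (SE) from limma. The spread was taken from the 20 distinct libraries of the table section that holds sgNeg2. Calls were made over 11382 tested genes, with p adjusted by Benjamini and Hochberg's method and a threshold of 0.05. The 4 libraries had between 10677 and 10733 genes at 1 FPKM or more, and 1 FPKM stood for between 8.7 and 16.3 fragments per kilobase of transcript. In that section 1 set of values stood in 2 columns, labelled MEAF6 guide 2 and VPS72 guide 2, and both were left out, so MEAF6 had 1 library.

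The targeted transcript was lower in both knockout libraries, although not past the test. ING3 stood at 7.60 and 9.15 FPKM in sgNeg2, at 4.48 FPKM with guide 1 and at 6.55 FPKM with guide 2. Neither knockout value reached a control value, and the mean was 65.9% of control. The difference was -0.54 ± 0.17 on the log2 scale (SE, limma adjusted p = 0.274). Among the 11 targets of the section, control included, the ING3 knockout had the lowest mean ING3 level, 5.52 ± 1.47 FPKM (SD, n = 2), followed by TRRAP knockout at 6.62 FPKM. The guide 2 value of 6.55 FPKM lay between the TRRAP libraries at 7.07 and 6.16 FPKM, so only guide 1 was below them. An indel made by a guide need not lower the mRNA, so the transcript checks the label only in part. In these bulk libraries, fewer cells carrying a transcript and less transcript per cell cannot be told apart.

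The rest of the complex was close to control. Of the 4 other members of the acetyltransferase module, none reached an unadjusted p of 0.05. KAT5, the catalytic subunit, stood at 15.2 and 13.5 FPKM in sgNeg2 and at 12.9 and 15.0 FPKM in the knockout, so its groups overlapped. MEAF6 was at 8.18 and 8.26 FPKM in control and 8.91 and 9.39 FPKM in the knockout (log2 difference 0.14 ± 0.11, adjusted p = 0.751). Among the 14 other subunits measured, differences ran from -0.23 for MRGBP to 0.24 for the ATPase RUVBL1, and 0 reached an unadjusted p of 0.05. Both MRGBP libraries of the knockout, at 35.1 and 34.7 FPKM, lay below the control values of 43.1 and 39.4 FPKM. Over all tested genes, 9.53% reached an unadjusted p of 0.05.

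Of the 5 ING family genes, ING3 included, 3 had both knockout libraries below both controls, and none was called. ING1 was at 6.73 and 7.04 FPKM in sgNeg2 against 4.502 and 5.49 FPKM (log2 difference -0.40 ± 0.18, adjusted p = 0.486). ING5 was at 4.05 and 4.25 FPKM against 3.25 and 3.41 FPKM (-0.25 ± 0.11, adjusted p = 0.5005). For both, the knockout libraries lay below both controls, whereas ING2 and ING4 overlapped with control. Of 16 partners of the other ING complexes, 8 had both knockout libraries below both controls and 2 above. Among them were KAT6B, a MOZ-type acetyltransferase (5.96 and 7.04 FPKM in control, 4.13 and 5.50 FPKM in the knockout), and the deacetylase HDAC1 (51.7 and 43.7 FPKM against 39.6 and 41.6 FPKM). Over all tested genes 22.1% lay below both controls in this way and 21% above. The median difference of the partners was -0.10, against -0.0045 over all genes.

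Only 3 of 11382 genes (0.0264%) were called, all 3 higher in the knockout: IL1B, HSD17B2 and TNFAIP3. IL1B encodes the precursor of interleukin 1 beta, an inflammatory cytokine that caspase 1 cleaves into its active form. IL1B was at 12.7 and 12.3 FPKM in sgNeg2, at 70.2 FPKM with guide 1 and at 54.7 FPKM with guide 2. Both knockout libraries thus lay far above both controls, and the means were 12.5 ± 0.324 and 62.5 ± 10.99 FPKM (SD, n = 2 each), a 5.001-fold rise. The log2 difference was 2.22 ± 0.23 (limma adjusted p = 0.000743), and the call held under every alternative run.

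HSD17B2, an enzyme that oxidises estradiol and testosterone to less active steroids, was near the floor of the control libraries and measurable in the knockout. Its values were 0.0842 and 0.182 FPKM in sgNeg2, 2.69 FPKM with guide 1 and 1.94 FPKM with guide 2. The log2 difference was 1.54 ± 0.17 (adjusted p = 0.00117). No fold is given, since the control values stand for very few fragments. Without the guide 1 library the difference was 1.38 and the adjusted p 0.057, so that call rested on guide 1.

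TNFAIP3 encodes A20, a ubiquitin-editing enzyme that is induced by NF-kB and restrains it. It rose 2.63-fold, from 1.24 and 1.35 FPKM in sgNeg2 to 3.82 FPKM with guide 1 and 3.001 FPKM with guide 2. The groups did not overlap, and the log2 difference was 0.93 ± 0.15 (adjusted p = 0.0434). This call was close to the threshold: leaving out any 1 of the 4 libraries ended it, with adjusted p of 0.609 and 0.0612 without guide 1 and guide 2 and of 0.386 and 0.234 without sgNeg2 replicates 1 and 2. Rescaling the columns (0.0617), a filter of 5 FPKM (0.0917) and no filter (0.0749) ended it too, with the difference staying between 0.80 and 1.07 in these fits.

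The 250 bases before the annotated start are shown for the called genes IL1B and TNFAIP3, both textbook targets of NF-kB. HSD17B2, the other called gene, had no entry among the promoters used. The bases are taken from RefSeq on GRCh38.p14, while the submitters' notes on the expression data name hg19. IL1B, read on the minus strand, is chr2:112836780-112837029 and TNFAIP3, on the plus strand, is chr6:137867009-137867258. Capitals mark matches to the degenerate NF-kB consensus, searched on both strands.
IL1B: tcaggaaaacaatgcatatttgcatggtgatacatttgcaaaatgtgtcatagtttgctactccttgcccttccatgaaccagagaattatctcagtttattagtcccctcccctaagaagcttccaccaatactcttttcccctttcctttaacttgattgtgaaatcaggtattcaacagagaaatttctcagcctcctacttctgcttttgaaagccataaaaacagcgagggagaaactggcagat
TNFAIP3: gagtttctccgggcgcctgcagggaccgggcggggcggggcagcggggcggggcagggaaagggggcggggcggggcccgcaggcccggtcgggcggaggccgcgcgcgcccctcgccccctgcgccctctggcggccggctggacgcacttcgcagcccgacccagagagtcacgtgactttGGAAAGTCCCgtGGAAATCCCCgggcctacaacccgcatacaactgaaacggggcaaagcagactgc
The TNFAIP3 window held 2 matches, which do not overlap, 67 to 58 and 55 to 46 bases before the start, both on the strand opposite to the gene. The IL1B window held none, which says only that these letters are not in this window. Among 35116 promoter windows of this length in the table, 5.21% held a match. The AP-1 motif TGANTCA (6.57% of windows) and the TATA motif TATAAA (10.7%) were found in neither window. A match is a description of the letters and not a measured site.

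Besides IL1B, the largest differences upward among genes with a mean of at least 5 FPKM were not called. They included the hair keratin-associated genes KRTAP1-5 and KRTAP2-3, the secreted proteoglycan gene ESM1, the annexin ANXA10, C5orf30, the carboxypeptidase CPA4, the histone H4 gene HIST1H4H, the calcineurin inhibitor RCAN1, the small GTPase RND3, the anti-apoptotic BCL2A1 and the scaffold protein MPP4. ANXA10 stood at 10.7 and 8.27 FPKM in sgNeg2 and at 37.3 and 25.4 FPKM in the knockout (log2 difference 1.61 ± 0.28, adjusted p = 0.0584). C5orf30 stood at 10.6 and 10.4 FPKM against 34.3 and 25.1 FPKM (1.40 ± 0.23, adjusted p = 0.0584). In both genes each knockout library was above each control, which the choice of the genes required. Both passed the threshold with a pseudocount of 0.1 (adjusted p = 0.0495 and 0.0456) and after quantile normalization (adjusted p = 0.0470 for each). ESM1 passed with that pseudocount (adjusted p = 0.0456) and without the guide 2 library (adjusted p = 0.0148).

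RCAN1 was at 10.0 and 14.1 FPKM in control and at 31.6 and 28.0 FPKM in the knockout (1.26 ± 0.22, adjusted p = 0.0584). It passed the threshold with a pseudocount of 0.1 (adjusted p = 0.0495) and with the replicate number as a block (adjusted p = 0.0491). RND3 was at 18.3 and 24.0 FPKM against 54.8 and 40.6 FPKM (1.13 ± 0.21, adjusted p = 0.0646). BCL2A1, another NF-kB target, was at 10.2 and 7.79 FPKM against 21.8 and 18.9 FPKM (1.10 ± 0.26, adjusted p = 0.154). RCAN1 and BCL2A1 had similar values with either guide, while RND3 differed from control by 1.34 with guide 1 and 0.92 with guide 2. For KRTAP1-5 (0.213 and 0.403 FPKM against 7.96 and 2.35 FPKM), KRTAP2-3 (0.321 and 1.64 against 8.32 and 3.995 FPKM) and ESM1 (0.834 and 0.612 against 9.63 and 2.998 FPKM) the guide 1 library stood far above the guide 2 library. The KRTAP genes and HIST1H4H have near-identical copies, so how reads were shared among them is uncertain. The 11 differences ran from 1.03 (MPP4) to 2.07 (KRTAP1-5). Among the 11 targets of the section, sgNeg2 had the lowest mean for KRTAP1-5, KRTAP2-3, ESM1, ANXA10, CPA4, RCAN1, RND3, BCL2A1 and MPP4. In these genes every knockout mean lay above sgNeg2, so the rise was not particular to ING3 knockout, which ranked 5 of 11 for CPA4. The lowest mean was in MEAF6 knockout for C5orf30 and in VPS72 knockout for HIST1H4H.

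**Figure D1:**
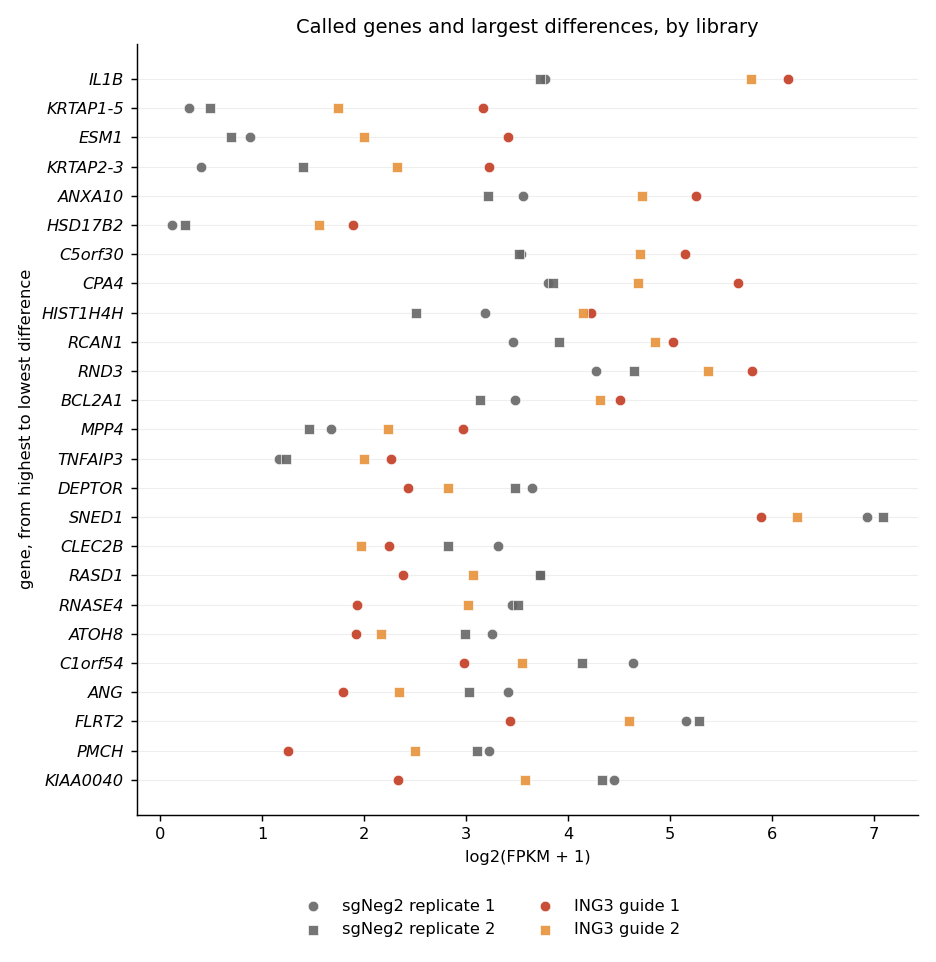
Expression of the called genes and of the 12 highest and 11 of the 12 lowest differences in each of the 4 libraries, on the log2(FPKM + 1) axis. Grey symbols are the sgNeg2 replicates, red circles guide 1 and orange squares guide 2. IL1B is 12.7 and 12.3 FPKM in sgNeg2 against 70.2 and 54.7 FPKM, and for most genes guide 1 lies farther from the controls than guide 2.

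No gene was called lower in the knockout, while 589 genes (5.17%) were lower and 496 (4.36%) higher at an unadjusted p under 0.05. KIAA0040 stood at 20.9 and 19.1 FPKM in control, at 4.04 FPKM with guide 1 and 10.98 FPKM with guide 2 (-1.43 ± 0.41, adjusted p = 0.240). ATOH8, a helix-loop-helix transcription factor, was at 8.56 and 6.93 FPKM against 2.79 and 3.48 FPKM (-1.08 ± 0.22, adjusted p = 0.0821). Both genes were below control in either library, and ATOH8 by similar amounts with either guide.

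SNED1, an extracellular matrix protein, was the most abundant gene of this group, at 121 and 135 FPKM in control and 58.3 and 75.1 FPKM in the knockout (-0.94 ± 0.21, adjusted p = 0.120). FLRT2, a guidance and adhesion receptor, stood at 34.6 and 38.0 FPKM against 9.81 and 23.2 FPKM (-1.20 ± 0.37, adjusted p = 0.268). DEPTOR, an inhibitor of mTOR, was at 11.6 and 10.2 FPKM against 4.38 and 6.07 FPKM (-0.94 ± 0.27, adjusted p = 0.225). All these genes had both knockout libraries below both controls, which the choice of the genes required. The others were PMCH, C1orf54, RASD1, CLEC2B and the pair ANG and RNASE4, ribonuclease genes that overlap at 1 locus and whose reads may not be separable. Among the 11 targets of the section, sgNeg2 had the highest mean for KIAA0040, FLRT2, ANG, ATOH8, SNED1 and DEPTOR. In these genes every knockout mean lay below sgNeg2, so the fall was not particular to ING3 knockout, which ranked 8 of 11 for KIAA0040. For PMCH, C1orf54, RNASE4, RASD1 and CLEC2B another knockout had the highest mean.

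**Figure D2:**
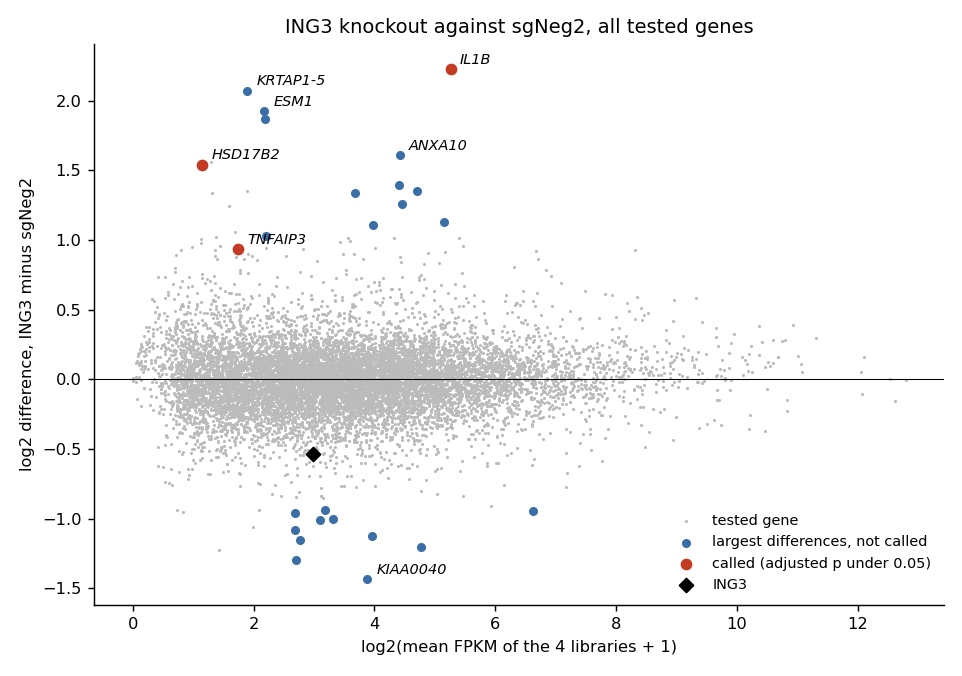
Tested genes by their level (log2 of the mean FPKM of the 4 libraries + 1) and their log2 difference, ING3 minus sgNeg2. The 3 called genes are red, the largest differences that were not called are blue and ING3 is the black diamond at -0.54. Most genes lie close to 0, where the median is -0.0045.

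Over all tested genes, the differences between knockout and control were about as large as those between libraries of 1 group, although a difference of means carries less library noise than a difference of single libraries. The log2 difference between the sgNeg2 replicates had a standard deviation of 0.247 over the tested genes, and that between the ING3 guides 0.224. Between the knockout mean and the control mean it was 0.236. Beyond 1 log2 unit lay 25 genes between the sgNeg2 replicates, 36 between the guides and 35 between the means. When the spread was instead taken from these 4 libraries alone, 62 genes were called, 45 higher and 17 lower, so the number of calls depended on where the spread came from. Among the largest differences named above, those upward then passed but for MPP4, and ATOH8, SNED1, DEPTOR, ANG, C1orf54 and CLEC2B passed downward.

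The 2 guides gave the same direction for the called genes, and a difference in size between them was not shown. Guide 1 alone called 4 genes (0.0351%), IL1B, HSD17B2, ESM1 and IL7R, and guide 2 alone called IL1B (0.00879%). At an unadjusted p under 0.05 guide 1 gave 1176 genes (10.3%) and guide 2 426 (3.74%). IL7R, the interleukin 7 receptor, falls outside the rule for named genes and is named for the count after its value was seen. For IL1B the log2 differences were 2.40 ± 0.28 with guide 1 (adjusted p = 0.00460) and 2.05 ± 0.28 with guide 2 (adjusted p = 0.0389). HSD17B2 differed by 1.71 and 1.38 and TNFAIP3 by 1.07 and 0.80 (adjusted p = 0.0607 and 0.617). Guide 1 minus guide 2 was 0.36 ± 0.32 for IL1B (limma unadjusted p = 0.291), and the unadjusted p was 0.187 for HSD17B2 and 0.210 for TNFAIP3. By number, guide 1 was farther from control in all 3 called genes, as it was in 12 of 12 largest differences upward and 10 of 12 downward. These genes were chosen by size and share the same libraries, so they are not independent, and the share over all tested genes is not given. The ING3 transcript was itself lower with guide 1 (-0.77) than with guide 2 (-0.31). A limma test of guide 1 against guide 2 called 0 genes, with 248 (2.18%) at an unadjusted p under 0.05. Of the 12 largest differences upward 1 was at that level, and of the 12 downward 4 were. Each guide had 1 library, assumed to vary like the other libraries of the section.

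The p53 target lists stood mostly above control without a called gene. CDKN1A, the p21 cell cycle inhibitor, was at 223 and 207 FPKM in sgNeg2 and at 299 and 287 FPKM in the knockout (0.45 ± 0.23, adjusted p = 0.578). MDM2, the ubiquitin ligase that degrades p53, was at 25.4 and 25.6 FPKM against 39.9 and 33.1 FPKM (0.49 ± 0.18, adjusted p = 0.340). Both libraries of the knockout were above both controls for the 2 genes. Of 14 p53 feedback and cell cycle targets, 10 lay above both controls and 0 below, and the median difference was 0.29. PLK2, a stress kinase (158 and 199 FPKM against 246 and 236 FPKM), and GADD45A (76.1 and 75.5 FPKM against 104 and 100.1 FPKM) were among the 3 members at an unadjusted p under 0.05, with MDM2. Of 13 cell death targets, 8 were above and 2 below (median 0.20), the death receptor TNFRSF10B differing by 0.40 and APAF1, the apoptosome scaffold, by -0.42. Of 14 metabolic and repair targets, 11 were above and 1 below (median 0.17), and RRM2B, a subunit of ribonucleotide reductase, was at 30.9 and 43.2 FPKM against 53.1 and 45.8 FPKM. Over all tested genes 21% lay above both controls and 22.1% below. These members were measured in the same 4 libraries and are not independent of each other.

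Besides IL1B and TNFAIP3, no gene of the inflammatory lists was called. Of 27 NF-kB targets listed, 18 were tested, and of these 10 lay above both controls and 2 below (median 0.20). Over all tested genes the shares were 21% and 22.1%. The filter can admit a member through another knockout where it is high, as with BIRC3. The shares of this list can therefore not be set against those of all genes. Without TNFAIP3, 9 of 17 lay above and 2 below (median 0.19). The chemokine CXCL8 was at 22.7 and 22.8 FPKM in control and 50.1 and 34.03 FPKM in the knockout (0.83 ± 0.28, adjusted p = 0.298). BIRC3, an inhibitor of apoptosis, was at 0.149 and 0.242 FPKM against 0.797 and 0.531 FPKM, and averaged 3.31 FPKM in TIP60 knockout. Cytokine LIF (78.9 and 75.9 FPKM against 53.3 and 64.1 FPKM) and CXCL3 were the members below both controls. Of 9 interleukin 1 family genes and receptors, 3 lay above and 1 below, and without IL1B 2 of 8 above and 1 below (median -0.030). The median over the 9 was 0.013 and became -0.0021 under quantile normalization. Caspase 1 (CASP1) was at 2.88 and 2.55 FPKM against 3.39 and 2.93 FPKM, and the receptor IL1R1 overlapped with control. LIF, CXCL3 and IL1R1 were named after their values were seen.

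IL1B is a gene of myeloid cells in tissue, so markers of such cells were read in the same libraries. Of 14 microglia, macrophage and leukocyte markers, 8 were listed at 0 in all 4 libraries, among them PTPRC, AIF1, P2RY12 and TYROBP. Only CD68, a lysosomal protein, reached 1 FPKM, at 18.6 and 14.6 FPKM in sgNeg2 and 19.7 and 23.9 FPKM in the knockout. The summed level of the list was 15.2 to 19.2 FPKM in control and 19.9 to 24.3 FPKM in the knockout. As for the glioblastoma label, 8 of 16 astrocytic and glioma markers reached 1 FPKM in at least 1 library, led by VIM, CD44, SOX9 and SOX2. GFAP was between 0.0717 and 0.161 FPKM, and AQP4, OLIG2 and CHI3L1 were listed at 0, so several defining astrocytic and oligodendroglial transcripts were absent or near 0.

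Genes of hypoxia and glycolysis lay mostly above control. Of 23 tested, 18 lay above both controls and 1 below, with a median of 0.32, against 21% and 22.1% over all tested genes. At an unadjusted p under 0.05, 6 were higher and 1 lower, while 4.36% of all tested genes were higher and 5.17% lower. The lower member, named after its value was seen, was the carbonic anhydrase CA12, at 84.5 and 90.2 FPKM in control and 42.5 and 61.96 FPKM in the knockout. The glucose transporter SLC2A1 was at 15.7 and 16.9 FPKM in control and 25.9 and 24.2 FPKM in the knockout (0.59 ± 0.13, adjusted p = 0.110). Hexokinase HK2 was at 1.57 and 1.92 FPKM against 2.80 and 2.90 FPKM, and the mitophagy receptor BNIP3 at 11.4 and 11.6 FPKM against 15.6 and 17.4 FPKM. These 3 genes had similar values in the 2 knockout libraries. No member was called.

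Several matrix genes stood higher in both knockout libraries, with adjusted p over 0.05. Lysyl oxidases cross-link collagen: LOXL2 was at 53.4 and 60.4 FPKM in sgNeg2 and 98.0 and 102 FPKM in the knockout (0.80 ± 0.16, adjusted p = 0.0821), and LOX at 18.6 and 20.2 FPKM against 41.9 and 33.1 FPKM (0.91 ± 0.23, adjusted p = 0.190). LAMA4, a laminin chain, was at 18.9 and 21.6 FPKM against 35.8 and 32.3 FPKM. Of 23 collagen and matrix genes 9 lay above both controls and 1 below (median 0.10), against 21% and 22.1% over all tested genes. PLAT, a secreted serine protease that activates plasminogen, was at 63.5 and 74.1 FPKM against 153 and 111 FPKM (0.92 ± 0.26, adjusted p = 0.225). It stands in another list, of matrix metalloproteinases and inhibitors, where 4 of 15 genes lay above both controls and 2 below (median -0.13). There MMP14 was lower, at 61.6 and 64.1 FPKM against 39.6 and 58.2 FPKM. LOXL2 passed the threshold with the replicate block (adjusted p = 0.0443), and LOXL2, LOX, LAMA4 and PLAT passed with the spread of these 4 libraries alone (adjusted p of 0.0303, 0.0259, 0.0365 and 0.0382). The summed level of 8 fibroblast and pericyte markers was 155 to 160 FPKM in control and 198 to 235 FPKM in the knockout, led by THY1, with LUM at 0. ACTA2, smooth muscle actin, was at 18.9 and 19.8 FPKM against 36.6 and 29.96 FPKM. The part of these markers in the matrix differences was not tested.

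Among YAP/TEAD targets, 8 of 15 lay above both controls and 1 below (median 0.27), against 21% and 22.1% over all tested genes, with AMOTL2 at 14.2 and 16.3 FPKM against 30.7 and 22.1 FPKM. Of 16 keratin and keratin-associated genes listed, 7 were tested, and all 7 lay above both controls, 5 under quantile normalization. The filter can admit a gene through any knockout where it is high, so this share cannot be set against that of all genes. KRT81 stood at 0.242 and 0.0654 FPKM in sgNeg2 and 1.38 and 0.291 FPKM in the knockout. In TIP60 knockout it averaged 7.10 FPKM. KRT8 was barely apart, at 13.5 and 12.3 FPKM against 13.6 and 14.8 FPKM. The median of the 7 was 0.60, but 0.85 with guide 1 and 0.24 with guide 2. KRT18, an epithelial-type keratin, was at 63.8 and 49.1 FPKM in control and 102 and 72.0 FPKM in the knockout. The 7 epithelial markers summed to 61.8 to 77.8 FPKM in control and 87.5 to 116 FPKM in the knockout, with CDH1 at 0. Nearly all of that sum was KRT18 and KRT8, which are also members of the keratin list, so it is not a separate measure.

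Stress and signalling lists held no call, and the medians given for each guide were not tested against each other. Over all tested genes 21% lay above both controls and 22.1% below. Of 17 NRF2 oxidative stress genes 10 lay above and 1 below, with a median of 0.50 for guide 1 and 0.21 for guide 2. TXNRD1, thioredoxin reductase, was at 76.5 and 79.7 FPKM in sgNeg2, 138 FPKM with guide 1 and 97.3 FPKM with guide 2. Of 25 immediate early genes, 8 lay above both controls and 3 below. At an unadjusted p under 0.05, 7 were higher and 1 lower, which 4.36% and 5.17% of all tested genes reached in these directions. The list's median was -0.10 with guide 1 and 0.37 with guide 2. MYC was at 36.4 and 41.3 FPKM in control and 57.5 and 61.9 FPKM in the knockout (0.61 ± 0.18, adjusted p = 0.248). SPRY4, a feedback inhibitor of receptor tyrosine kinase signalling, was at 44.1 and 37.6 FPKM against 24.1 and 27.8 FPKM (-0.63 ± 0.14, adjusted p = 0.120). Both had similar values with the 2 guides. Of 13 heat shock genes 5 lay above both controls and 2 below. HSP90AA1, a heat shock chaperone, was at 397 FPKM in each control and at 662 and 526 FPKM in the knockout (0.57 ± 0.19, adjusted p = 0.282), while the small heat shock protein HSPB1 was at 235 and 194 FPKM against 154 and 172 FPKM. Of 24 ATF4 and unfolded protein response genes, 6 lay above both controls and 3 below (median -0.020). The disulphide isomerase PDIA4 was at 80.2 and 76.9 FPKM against 45.2 and 58.8 FPKM. In the other direction, the secreted glycoprotein gene STC2 was at 9.40 and 7.87 FPKM against 23.1 and 11.6 FPKM, and CHAC1, an enzyme that degrades glutathione, at 30.8 and 31.2 FPKM against 59.1 and 37.1 FPKM.

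Other signalling and immune lists held no call. In the TGF-beta, activin and BMP list 6 of 22 genes lay above both controls and 5 below (median -0.023), close to the 21% and 22.1% over all tested genes. The secreted protein FSTL1 was at 130 and 148 FPKM in sgNeg2 and 231 and 203 FPKM in the knockout (0.64 ± 0.17, adjusted p = 0.204), and the ligand BMP4 at 1.80 and 1.90 FPKM against 3.13 and 3.38 FPKM. Of 16 interferon-stimulated genes 4 lay above and 2 below, so the share above was also near that of all genes. IFI44L was at 1.32 and 1.28 FPKM against 0.439 and 0.765 FPKM, and the transcription factor IRF7 at 2.07 and 1.78 FPKM against 2.57 and 3.22 FPKM. Of 14 MHC class I and antigen presentation genes, 4 lay above and 4 below (median 0.081), again near the shares of all genes. The heavy chain gene HLA-B was at 25.5 and 23.5 FPKM against 39.0 and 34.8 FPKM. Of 5 H2A variant genes tested, 1 lay above both controls and 2 below (median -0.15), beside 21% and 22.1% over all tested genes. None of the 5 reached an unadjusted p of 0.05. H2AFV, which encodes a form of H2A.Z, was at 67.1 and 59.4 FPKM against 51.1 and 50.4 FPKM (-0.31 ± 0.15, adjusted p = 0.546). The higher one was H2AFY, at 114 and 106 FPKM against 119 and 124 FPKM. Of 7 neuron markers tested, 3 lay above both controls and 1 below (median 0.16), read against the same shares of all genes. SNAP25, a synaptic protein, was at 9.67 and 11.1 FPKM against 15.1 and 13.8 FPKM. MAP2 was the lower one, at 7.66 and 11.2 FPKM against 7.62 and 7.29 FPKM. The summed neuron list overlapped between the groups.

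Growth genes showed small differences of either sign. Of 25 G1/S and replication genes, 10 lay above both controls and 0 below (median 0.18), against 21% and 22.1% over all tested genes, with cyclin E2 (CCNE2) at 6.86 and 7.08 FPKM against 10.6 and 8.71 FPKM. Read against the same shares, of 32 G2/M and mitosis genes 2 lay above and 4 below (median -0.060), and none reached an unadjusted p of 0.05. Of 24 ribosome biogenesis genes 11 lay above and 2 below (median 0.22). The 48 cytosolic ribosomal protein genes had a median of 0.11 that became 0.035 under quantile normalization. Oxidative phosphorylation genes (32 tested, median 0.020) and cholesterol and fatty acid synthesis genes (25 tested, median 0.027) had medians close to that of all genes. Of the former 3 lay above both controls and 0 below, and of the latter 10 above and 2 below.

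**Figure D3:**
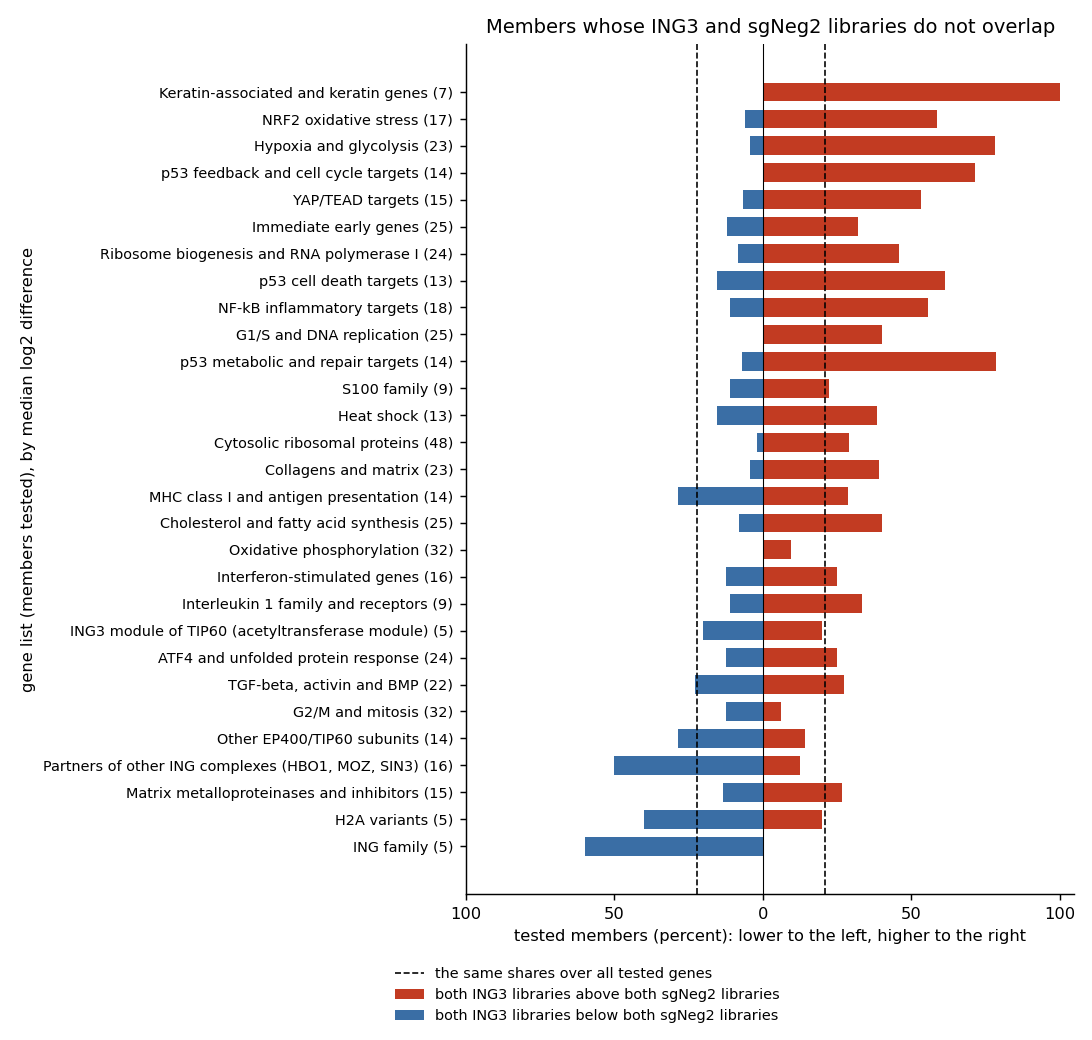
For each pathway list with more than 2 tested members, the percentage of tested members with both ING3 libraries above both sgNeg2 libraries (red, to the right) or below both (blue, to the left). Dashed lines mark the same shares over all 11382 genes, 21% and 22.1%. The p53 metabolic and repair targets (11 of 14 above), hypoxia and glycolysis (18 of 23) and p53 feedback (10 of 14) stand to the right, the ING family (3 of 5 below) to the left. The keratin bar (7 of 7 above) holds genes that the filter admitted through knockouts where they are high, so it cannot be set against the dashed lines. The same holds for the NF-kB bar, which includes BIRC3.

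Across the section, the called genes were high in several other knockouts of the same complex. IL1B averaged 111 FPKM in TRRAP, 82.4 FPKM in TIP60, 65.1 FPKM in EP400 and 62.5 FPKM in ING3 knockout, then 31.0 FPKM in GAS41 (gene YEATS4) and 23.01 FPKM in MRGBP knockout, and was lowest in sgNeg2. The ING3 values, 70.2 and 54.7 FPKM, lay on either side of the EP400 pair of 67.1 and 63.0 FPKM and reached the lower TIP60 library at 65.3 FPKM. HSD17B2 averaged 4.02 FPKM in EP400, 2.32 FPKM in ING3, 2.17 FPKM in TRRAP and 2.07 FPKM in TIP60 knockout, and at most 0.373 FPKM in any other target. The ING3, TRRAP and TIP60 values overlapped. TNFAIP3 averaged 5.29 FPKM in TIP60, 3.68 FPKM in ACTL6A, 3.52 FPKM in EP400 and 3.41 FPKM in ING3 knockout, the last 3 overlapping. All these targets are read against the same 2 sgNeg2 libraries, so levels and direct comparisons are given rather than shared calls.

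**Figure D4:**
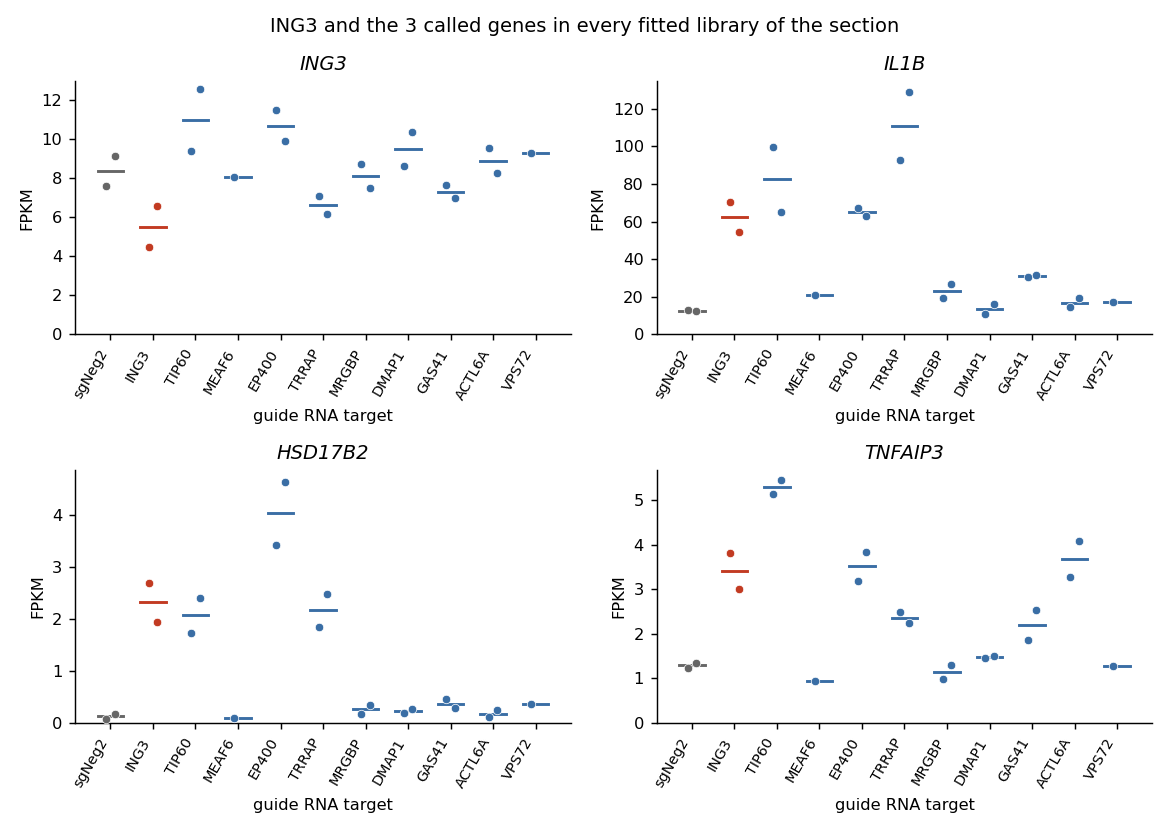
FPKM of ING3, IL1B, HSD17B2 and TNFAIP3 in every fitted library of the section, by guide RNA target. Points are libraries and bars are target means, with sgNeg2 grey and ING3 knockout red. ING3 has its lowest mean in its own knockout (5.52 FPKM), with guide 2 between the TRRAP libraries. IL1B and HSD17B2 are high in ING3, TIP60, EP400 and TRRAP knockout.

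Set directly against the knockout of its catalytic partner, without the control libraries, ING3 knockout differed widely. Of 11382 genes, 3696 (32.5%) were called against TIP60 knockout, 2430 (21.3%) higher in ING3 knockout and 1266 (11.1%) lower. That split depended on scaling: 65.7% of calls were higher as deposited, 47.7% after rescaling and 52% after quantile normalization, and the median of all genes was 0.097, -0.023 and 0.0029. Without the ING3 guide 2 library 1733 genes were called. KAT5 itself was 0.83 log2 units higher in ING3 knockout (adjusted p = 0.000184) and ING3 0.88 lower (-0.88 ± 0.17, adjusted p = 0.00135). Among genes with a mean of at least 5 FPKM the largest differences were MLLT11, S100A4 and COL23A1, higher in ING3 knockout, and STRA6, UCN2 and GFPT2, lower in it.

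The genes with the largest differences from sgNeg2, called ones included, were then compared between the 2 knockouts, and where they differed ING3 knockout stood between control and TIP60 knockout. Of these 26 genes, 15 were called against TIP60, and all 15 kept their call and direction under both other scalings. Lower in ING3 than in TIP60 knockout were TNFAIP3, ESM1, KRTAP2-3, ANXA10, CPA4, RCAN1, RND3 and MPP4, and 7 of the lowest genes (KIAA0040, FLRT2, ANG, ATOH8, RASD1, SNED1 and DEPTOR) were higher. CPA4, for example, averaged 37.3 FPKM in ING3 knockout and 193 FPKM in TIP60 knockout (log2 difference -2.41, 95% interval -3.22 to -1.61, adjusted p = 0.000285). KIAA0040 averaged 7.51 and 0.504 FPKM (2.38, interval 1.497 to 3.25, adjusted p = 0.000607). IL1B and HSD17B2 were not called: IL1B differed by -0.37 (interval -0.86 to 0.11) and HSD17B2 by 0.11 (interval -0.26 to 0.48). TNFAIP3 was 0.52 lower in ING3 knockout (-0.52, interval -0.83 to -0.21, adjusted p = 0.0137).

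Against EP400 knockout no gene was called by limma, while 914 (8.03%) reached an unadjusted p of 0.05. IL1B differed by -0.069 (interval -0.56 to 0.42) and TNFAIP3 by -0.038 (interval -0.35 to 0.27). HSD17B2 was lower in ING3 knockout by a margin whose interval excluded 0 (-0.60, interval -0.97 to -0.23) but did not pass the adjustment (adjusted p = 0.394). ING3 itself differed by -0.86 ± 0.17 and was not called either (adjusted p = 0.246), so a count of 0 does not show that the 2 knockouts act alike.

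Against MEAF6, the other small subunit of the module, 3 genes were called (0.0264%), all higher in ING3 knockout, and 882 (7.75%) reached an unadjusted p of 0.05. The 3 were HSD17B2 (2.32 against 0.102 FPKM; 1.58, interval 1.13 to 2.03, adjusted p = 0.0219), TNFAIP3 (3.41 against 0.952 FPKM; 1.17, interval 0.79 to 1.55, adjusted p = 0.0474) and MSLN. MSLN encodes mesothelin, and it is named for the count after its values were seen. MSLN was at 1.68 and 1.82 FPKM in ING3 knockout and at 0.706 and 0.615 FPKM in sgNeg2 (log2 difference from MEAF6 knockout 1.01 ± 0.16, adjusted p = 0.0474). IL1B averaged 62.5 FPKM against 21.1 FPKM (1.51, interval 0.91 to 2.11) and missed the threshold at an adjusted p of 0.0702. MEAF6 knockout rested on 1 library, assumed to vary like the others. Without ING3 guide 1, and after rescaling the columns, 0 genes were called in this comparison.

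**Figure D5:**
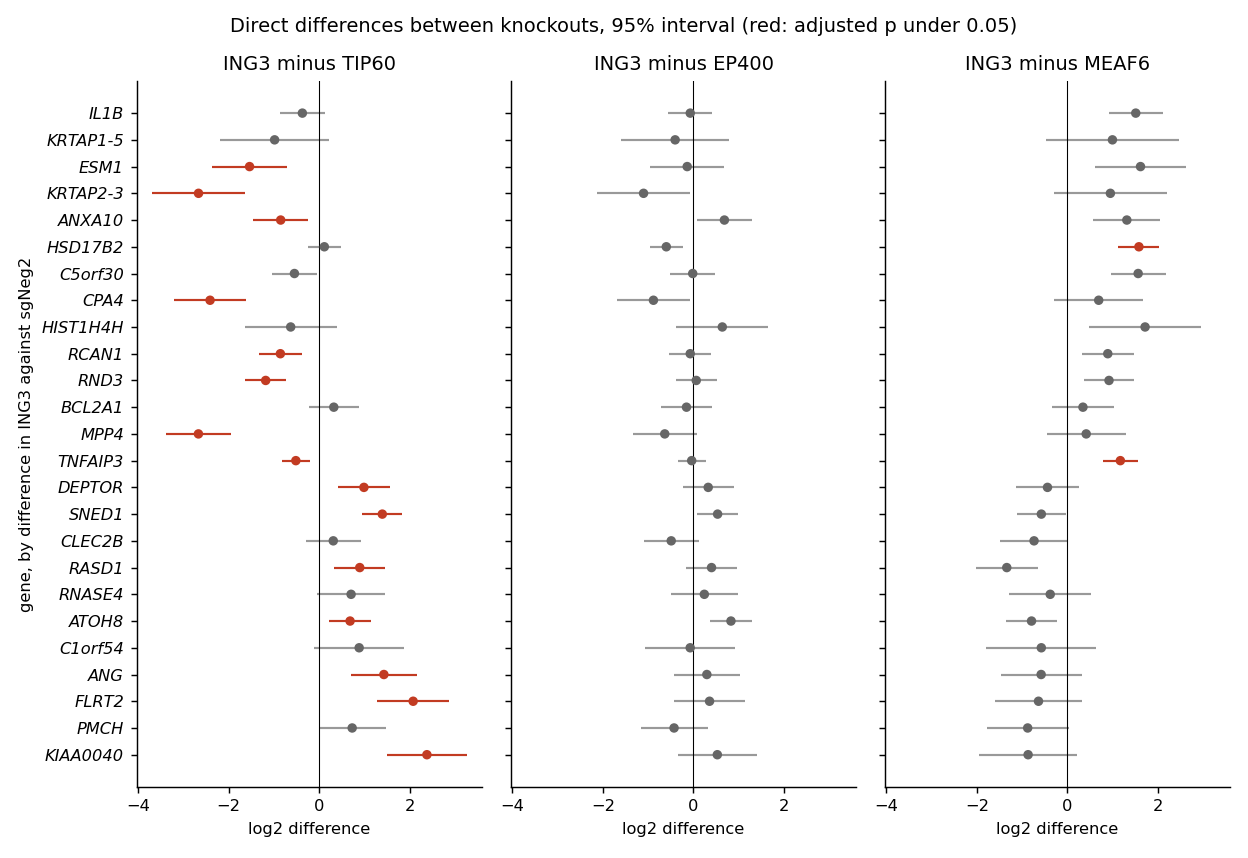
Log2 difference between ING3 knockout and TIP60, EP400 or MEAF6 knockout with its 95% interval for 25 of the 26 genes, red where the adjusted p is under 0.05. Called genes are common against TIP60 (15 of 26), absent against EP400 and limited to HSD17B2 and TNFAIP3 against MEAF6.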

How the data were processed

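RNA of 4 libraries, ING3 guides 1 and 2 and sgNeg2 replicates 1 and 2, was analysed within the table of all 48. The authors deposited 1 table of FPKM values for 19102 genes. TopHat2, Cufflinks, Cuffdiff and the hg19 build are named, without versions or roles, per the submitters' processing notes. Every column name matched a library title (columns of other samples: 0). The table falls into 5 sections divided by blank columns, and tests stayed within the section of sgNeg2 (22 columns), because a normalization across sections is not given in the sources used here. Of these, 2 columns, MEAF6 guide 2 and VPS72 guide 2, were identical in all 19102 genes and were left out.

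Values were analysed as log2(FPKM + 1), which understates differences of weakly expressed genes. Tested were 11382 genes that reached 1 FPKM in 2 or more of the 20 fitted columns. The test was limma 3.58.1 in R 4.3.3, with 1 level per target, 9 residual degrees of freedom, an intensity trend in the empirical Bayes step, two-sided p-values and Benjamini-Hochberg adjustment over all tested genes, called under 0.05. A second fit gave each ING3 guide its own level. The exact permutation test of 2 libraries against 2 cannot go below 0.333, so it was not used. The scripts were tested on simulated data. The table holds no counts, so the fragments behind 1 FPKM were estimated from the spacing of low values. Whole reads were not recovered: 65.1 to 71.6% of the low values lay within 0.15 of a whole number of fragments.

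The text names ING3, CDKN1A, MDM2, subunits of the complex, called genes, the 12 highest and 12 lowest differences (mean of at least 5 FPKM in the higher group, groups not overlapping), up to 4 members per list (groups not overlapping, smallest p) and up to 3 called genes per direction in direct comparisons. Some named genes, among them 1 of the 12 lowest, are not reported or drawn here. Lists got counts and medians and no test. The comparison, the members and the 37 gene and marker lists were chosen with earlier results of these data known. Promoters were matched by symbol in a RefSeq table on GRCh38.p14. Alternatives covered the pseudocount, the filter, the scaling, the trend, a replicate block, the source of the spread and each library left out.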

Additional observations from a re-analysis of the deposited data

Results flagged for a closer look

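The following results were marked because 2 knockouts differed by a test of the difference itself. HSD17B2 was 1.58 log2 units higher in ING3 than in MEAF6 knockout, and TNFAIP3 1.17 higher. TNFAIP3 differed by -0.52 between ING3 and TIP60 knockout. Against TIP60 knockout 3696 genes were called and against MEAF6 knockout 3.

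A signal was also present in a column that entered no comparison, the values deposited identically under MEAF6 guide 2 and VPS72 guide 2. It held IL1B at 23.9 FPKM, above both sgNeg2 libraries at 12.7 and 12.3 FPKM. HSD17B2, at 0.196 FPKM, was level with the higher sgNeg2 library at 0.182 FPKM, and so few fragments show no difference. The column had TNFAIP3 at 1.34 FPKM, VPS72 at 17.2 FPKM and MEAF6 at 9.45 FPKM. In sgNeg2, VPS72 was at 35.7 and 28.1 FPKM and MEAF6 at 8.18 and 8.26 FPKM.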

How the results depend on the processing

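Against sgNeg2, 3 genes were called, and the count was 9 with a pseudocount of 0.1, 1 with a filter of 5 FPKM, 6 after quantile normalization, 5 with the number in the labels as a replicate block, 62 with the spread of these 4 libraries alone and 1 to 4 with each library left out. IL1B passed in 12 of 12 alternatives (log2 difference 2.05 to 2.40), HSD17B2 in 10 of the 11 that tested it (lost without ING3 guide 1) and TNFAIP3 in 5 of 12 (adjusted p 0.0298 to 0.609). Between ING3 and sgNeg2, same-numbered libraries did not deviate together (correlation of deviations 0.0159 over genes). In ING3 the number is also the guide, so the correlation cannot tell whether same-numbered libraries shared a batch.

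Between the guides and against EP400 knockout, 1 gene each was called without a filter and 0 otherwise. Against MEAF6 knockout the count of 3 became 0 with the filter of 5 FPKM, 0 after rescaling, 5 after quantile normalization, 1 with the replicate block and 0 to 2 with an ING3 library left out. Against TIP60 knockout the count was 1733 to 3097 with a library left out, lowest without ING3 guide 2, and 3839 with the replicate block.

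Differences from sgNeg2 that changed sign did so only with 1 library left out, in genes that were never called, where they ranged from -0.14 to 0.061 for KAT5, -0.23 to 0.13 for MLLT11, -0.23 to 0.57 for UCN2, -0.15 to 0.17 for EPC1, -0.15 to 0.066 for EP400, -0.20 to 0.11 for TRRAP, -0.12 to 0.22 for VPS72, -0.039 to 0.24 for EPC2, -0.32 to 0.10 for DMAP1, -0.21 to 0.13 for RUVBL2 and -0.30 to 0.018 for MBTD1. The causes were not tested. A left-out library leaves 1 in its group, assumed to vary like the others. At 8.7 to 16.3 fragments per kilobase and FPKM, genes under 1 FPKM, HSD17B2 in control among them, rest on few fragments.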
